A study of Mus musculus with 24 samples.

Results

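Near-constitutive exons are exons that nearly every transcript of their gene contains. The set described here was defined by its behaviour in wild-type (WT) mouse cells: cassette-type exon events of the splicing table that are not microexons, that were covered in all 24 libraries, and whose percent spliced in (PSI, the percent of informative junction reads that include the exon) was at least 95 in each of the 12 WT libraries. Of 54141 exon events, 53662 were not microexons, 25945 of these were covered in all 24 libraries, and 14297 exons in 5193 genes met the WT bound, which is 55.11% of the covered exons. The exons nearest to the bound from inside, in 4931406C07Rik and 4931406P16Rik, had a lowest WT value of exactly 95, and those nearest from outside, in Tbc1d19, Tgfbrap1 and Usp54, had 94.99. Since WT values chose the exons, the WT side of each difference between genotypes was used by the choice, no exon could rise by more than 5 points, and counts of falls are descriptions that were read beside the share over all exons and beside a mirrored set. The mirrored set holds the 14407 covered exons with PSI of at least 95 in all 12 slow/slow libraries, and 13150 exons (91.98% of the near-constitutive exons) belong to both sets.

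The cells were E14 mouse embryonic stem cells (ESCs) with unmodified Polr2a (WT) and slow/slow cells, in which gene targeting had placed the R749H substitution into both alleles of Polr2a, the gene of the largest subunit of RNA polymerase II. Both genotypes were sampled as ESCs, at day 7 of differentiation as neural progenitor cells (NPCs), as PSA-NCAM+ cells, purified at day 10 with beads against polysialylated neural cell adhesion molecule, and as neurons that had been replated at day 7 and grown for another 14 days. Each of the 8 groups had 3 replicates from separate differentiation experiments, and how many targeted clones they stand for is not given in the sources used here. For differentiation, WT cells had been plated at 10000 and slow/slow cells at 30000 per square centimetre. Density and genotype therefore cannot be told apart at the NPC and PSA-NCAM+ stages. The labels give no density for the neurons, which were replated from day 7 cultures. There too an earlier difference in density cannot be told apart from genotype.

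Exons are recognised while RNA polymerase II is still transcribing the gene. U1 snRNP pairs with the 5′ splice site, U2AF and U2 snRNP bind the 3′ splice site and branch point, and proteins of the SR family bound inside the exon help the pairing across it. A slower polymerase gives an upstream splice site more time before a competing downstream site is made, which can raise or lower the inclusion of an exon depending on which factor gains from the delay. Exons with strong sites and long flanking introns are the classical substrate of recognition across the exon, whereas short introns can be recognised directly. Skipping of an exon whose length is not a multiple of 3 shifts the reading frame and often sends the transcript to nonsense-mediated decay, so that skipped products may be underrepresented in poly(A)+ RNA.

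A few of these exons carry the results that follow, and their sequences are shown to make the objects concrete. They were taken from GENCODE transcripts of the GRCm38 assembly, and an exon was matched by chromosome, strand, its own length and the lengths of both flanking introns, because the splicing coordinates are in mm9. The capitals mark the last 3 bases of the exon, which pair with U1 snRNP as the exonic part of the 5′ splice site. Gpcpd1, Cept1 and Dgkd hold exons that slow/slow cells skipped more at one or more stages. Ndufs4 and Mrps28 hold exons that slow/slow cells skipped less. The exons of Atp5d and Ppp1cb went in opposite directions in NPCs and neurons, although for Ppp1cb only the lower skipping in NPCs was called. The exon of Dync1li2 belongs to the mirrored set only.
Gpcpd1: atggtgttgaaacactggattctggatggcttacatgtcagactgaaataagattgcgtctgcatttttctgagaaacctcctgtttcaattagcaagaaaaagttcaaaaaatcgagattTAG
Cept1: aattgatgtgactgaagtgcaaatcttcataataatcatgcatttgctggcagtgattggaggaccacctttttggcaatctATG
Dgkd: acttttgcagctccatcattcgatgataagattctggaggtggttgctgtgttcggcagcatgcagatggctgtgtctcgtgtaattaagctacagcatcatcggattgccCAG
Ndufs4: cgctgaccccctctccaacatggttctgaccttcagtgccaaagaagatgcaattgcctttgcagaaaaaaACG
Mrps28: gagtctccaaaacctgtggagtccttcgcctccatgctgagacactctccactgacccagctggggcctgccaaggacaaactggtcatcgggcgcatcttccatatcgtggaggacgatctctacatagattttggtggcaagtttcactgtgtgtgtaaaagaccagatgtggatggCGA
Ppp1cb: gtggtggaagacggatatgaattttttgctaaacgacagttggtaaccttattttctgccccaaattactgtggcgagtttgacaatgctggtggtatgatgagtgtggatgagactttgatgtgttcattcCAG
Atp5d: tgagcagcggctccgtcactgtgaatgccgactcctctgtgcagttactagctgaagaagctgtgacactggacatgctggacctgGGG
Dync1li2: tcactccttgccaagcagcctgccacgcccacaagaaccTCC

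Of these 8 exons, those of Dgkd and Ppp1cb end in CAG, the commonest ending in the set, which closed 23.9% of the 12448 near-constitutive exons that could be matched to a transcript. AAG closed 19.5% and GAG 11.2%, and the last base was G in 79.94%, against 78.79% of the other covered exons that could be matched. The near-constitutive exons had a median length of 118 bases (range 6 to 4698), against 108 bases for the other covered exons, and 38.85% of them had a length that is a multiple of 3, against 40.92%. The median of the longer of both flanking introns was 2775 bases, against 2992 bases, and the median of the shorter one was 981 bases, against 860 bases. The table classed 11694 exons as simple events and the remaining 690, 975 and 938 as events of increasing complexity.

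Depth limits what can be seen in such exons. The median near-constitutive exon had 279 informative reads per library and 103 in its least covered library, and total gene counts ranged from 32974432 to 104466886 per library. At the median of the lowest read number among the 6 libraries of a comparison, 0 exclusion reads would still allow skipping of up to 2.055% in ESCs, 1.667% in NPCs, 1.478% at the PSA-NCAM+ stage and 2.027% in neurons, counting error only. Polr2a read counts cannot check a point mutation, and its expression was 307 to 332 CPM (gene counts scaled to the TMM-adjusted library size) in WT neurons and 158 to 176 CPM in slow/slow neurons (log2 fold change −0.94 ± 0.17 (SE), FDR 7.76e-05, edgeR). The pluripotency list Pou5f1, Nanog, Zfp42 and Sox2 fell from a sum of 3860 to 4300 CPM in ESCs to 188 to 243 CPM in neurons, and was still at 1540 to 1630 CPM in WT and 1200 to 1310 CPM in slow/slow NPCs. In PSA-NCAM+ cells, the list Ncam1, St8sia2, St8sia4 and Dcx summed to only 28.9 to 32.7 CPM in WT. In slow/slow cells it was 40.0 to 92.3 CPM, and in neurons 1330 to 1880 CPM. Of the NPC markers Sox1, Pax6 and Nes, Sox1 was not found. In NPCs, Pax6 was at 4.07 to 4.63 CPM in WT and 36.4 to 43.8 CPM in slow/slow cells. Nes was at 32.3 to 34.1 and 80.5 to 115 CPM there. The endoderm list Sox17, Gata6, Foxa2 and Gata4 summed to 123 to 142 CPM in WT and 114 to 147 CPM in slow/slow NPCs. In ESCs it was 12.1 to 13.6 CPM. The 3 found of the neuron markers Tubb3, Map2, Rbfox3 and Syn1 (all but Map2) summed to 27.1 to 27.9 CPM in WT and 103 to 120 CPM in slow/slow NPCs. Tubb3 alone gave 15.4 to 16.7 and 87.3 to 104 CPM of these sums, and Rbfox3 overlapped between genotypes. In neurons, Olig1, Olig2 and Sox10 summed to 55.0 to 75.4 CPM in WT and 7.49 to 8.76 CPM in slow/slow cells, where Sox10 alone went the other way, from 0.706 to 1.2 CPM in WT to 6.11 to 7.88 CPM in slow/slow cells. The mesoderm marker T was at 66.7 to 86.4 CPM in WT and 6.47 to 7.63 CPM in slow/slow neurons. The part of these differences in cell makeup in the results below was not tested, and in such bulk cultures a change in cell makeup and a change within cells cannot be told apart.

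Slow/slow cells kept including nearly all near-constitutive exons at every stage. Only 1147 of the 14297 exons fell below a PSI of 95 in any slow/slow library, 101 (0.7064%) fell below 90 in any, and 0 fell below 50. Of the 14407 exons of the mirrored set, 127 fell below 90 and 0 below 50 in any WT library. Between 12435 and 12500 exons per stage passed the quality filter in all 6 libraries of that stage, and slow/slow and WT means lay within 1 point of each other for 89.69% of them in ESCs, 91.04% in NPCs, 87.42% at the PSA-NCAM+ stage and 89.06% in neurons. A newly skipped exon was defined by the minimum change that the study used, a mean PSI lower by more than 10 points, together with a posterior probability of that sign over 0.95, which was computed here from the read numbers. By that rule, 1 exon, in Gpcpd1, was newly skipped in NPCs, and 0 in ESCs, PSA-NCAM+ cells and neurons, and these counts are the same without any bound on the posterior probability. Over all exons tested, 0.437% fell that far in ESCs, 2.09% in NPCs, 0.712% at the PSA-NCAM+ stage and 1.40% in neurons.

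A second test took inclusion differences of any size. With limma on the logit of the reads, 614, 1062, 1213 and 1196 exons in ESCs, NPCs, PSA-NCAM+ cells and neurons had an unadjusted p under 0.05, and 11, 229, 71 and 192 an FDR under 0.05 in either direction. These are 0.0885%, 1.84%, 0.568% and 1.54% of the near-constitutive exons tested, below the 0.573%, 5.99%, 1.43% and 4.75% of all exons tested. The WT bound holds these exons near full inclusion and limits rises, so a lower share is in part built in by the choice. A block for the replicate number gave 12, 278, 18 and 151 at that FDR, beside 0.488%, 6.56%, 0.691% and 4.22% of all exons. At a fall of more than 10 points together with that FDR, limma called 1 exon in NPCs and 0 at the other stages, as did the block.

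Gpcpd1 encodes a glycerophosphocholine phosphodiesterase, an enzyme of choline lipid turnover. Its exon of 124 bases is exon 7 of 20, wholly coding, lies at chr2:132379693-132379816 on the minus strand (mm9) between introns of 2854 and 3402 bases, and its length shifts the frame. In NPCs its PSI was 100.0, 98.77 and 98.52 in WT and 90.94, 82.38 and 82.89 in slow/slow cells, from 119 to 274 reads per library. All slow/slow NPC values lay below all WT values, and the Wilson 95% intervals of 86.9 to 93.7, 76.1 to 87.3 and 75.6 to 88.1 stayed below the lowest WT bound of 94.7. The difference of the means was −13.69 points (99.1 ± 0.792 against 85.4 ± 4.8, SD, n = 3), with a posterior probability of 1.0 and an FDR of 0.00331 with limma.

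The same exon was included less in slow/slow cells at the other stages too, by smaller amounts. Its PSI was 96.53, 100.0 and 100.0 in WT ESCs and 93.48, 91.67 and 88.06 in slow/slow ESCs, and 98.65, 100.0 and 97.7 against 95.45, 92.9 and 95.04 in PSA-NCAM+ cells. In neurons it was 98.82, 99.16 and 98.27 against 97.03, 92.07 and 95.06. The genotypes did not overlap at any of the 4 stages. Expression of Gpcpd1 went different ways across stages, higher in slow/slow NPCs (22.2 to 22.9 CPM in WT, 38.9 to 43.6 in slow/slow, log2 fold change 0.87 ± 0.11 (SE), FDR 1.63e-06 with edgeR) and lower in slow/slow neurons (114 to 134 CPM against 42.8 to 48.7, log2 fold change −1.40 ± 0.11, FDR 3.06e-09).

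**Figure D1:**
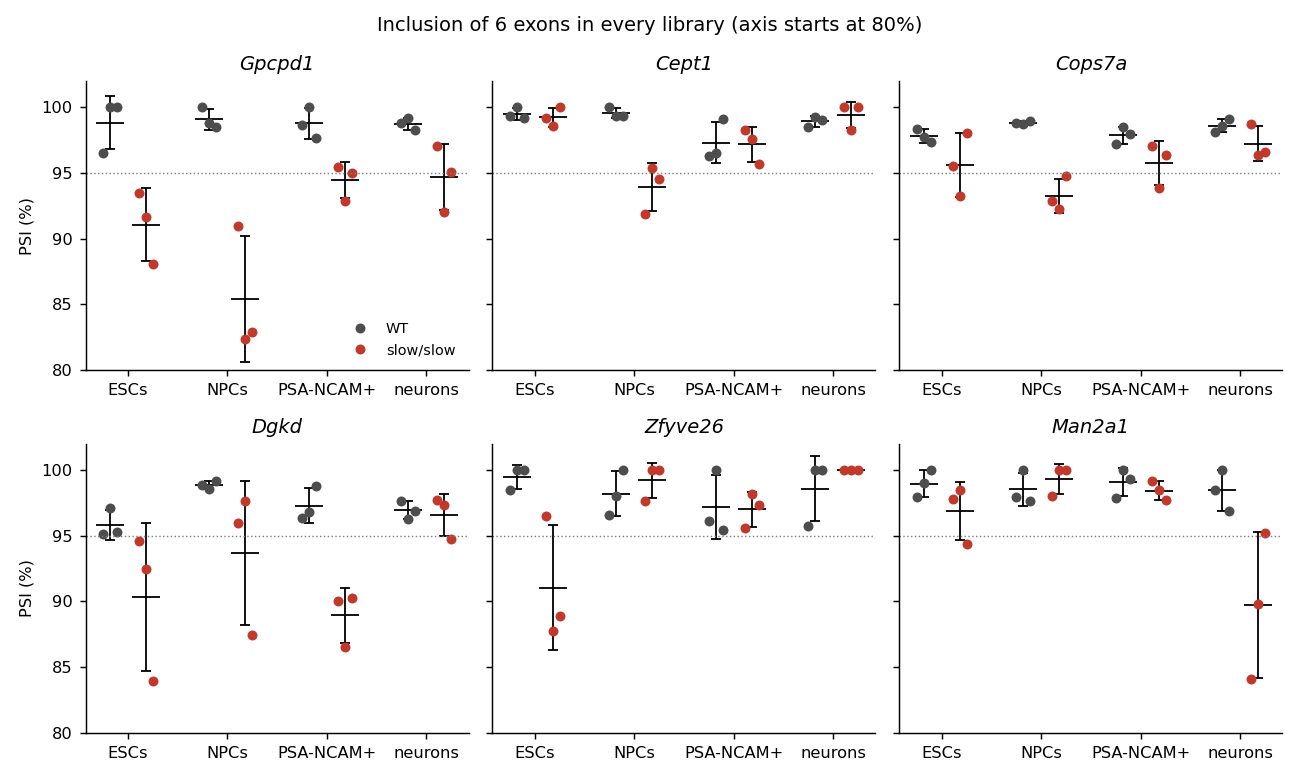
PSI in percent (vertical axis, starting at 80) of the exons in Gpcpd1, Cept1, Cops7a, Dgkd, Zfyve26 and Man2a1 in each library, by stage and genotype. Points are libraries, bars are the mean ± SD (n = 3), and the dotted line is the WT bound of 95; only the Gpcpd1 exon in NPCs differed by more than 10 points between the means.

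Below the threshold of the study, 23 exons in 22 genes lost more than 5 points at some stage with a posterior probability over 0.95, 5 in ESCs, 4 in NPCs, 11 at the PSA-NCAM+ stage and 4 in neurons, where Gpcpd1 counts in ESCs and in NPCs. The shares over all exons were 0.825%, 3.34%, 1.17% and 2.00%. In 22 of the 24 pairs of exon and stage the slow/slow libraries all lay below the WT libraries. The choice by size and posterior probability favours such separation, and its share over all exons was not counted, so it adds no support. This list was extended below the threshold after the values had been seen. The smallest fall in it was −5.017 points, and the lowest read number behind one of its values was 34.

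Lipid enzymes and a regulatory complex were among the exons that fell in NPCs. Cept1 encodes the enzyme of the last step of phosphatidylcholine and phosphatidylethanolamine synthesis. Its exon 5 of 9, 85 bases beside introns of 18249 and 6950 bases, had a PSI of 100.0, 99.32 and 99.36 in WT NPCs and 91.88, 95.35 and 94.52 in slow/slow NPCs, without overlap (−5.643 points, limma FDR 0.015). Cops7a encodes a subunit of the COP9 signalosome, and its exon 2 of 8 went from 98.77, 98.76 and 98.95 to 92.86, 92.26 and 94.74 (−5.54 points, limma FDR 0.000805), from 674 to 1477 reads. The exon of Fbrs overlapped between genotypes, with 100.0 in each WT library and 93.02, 91.54 and 100.0 in slow/slow NPCs.

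PSA-NCAM+ cells held the most exons of this kind. Dgkd encodes a diacylglycerol kinase, which turns diacylglycerol into phosphatidic acid, and its exon 22 of 30 had a PSI of 96.32, 96.77 and 98.81 in WT and 90.04, 86.53 and 90.23 in slow/slow PSA-NCAM+ cells (−8.367 points, limma FDR 0.0301). In this exon the genotypes did not overlap. The others were in St6galnac4 (−6.683 points), a sialyltransferase, Sema4d (−6.42), a semaphorin, Txndc11 (−6.27), Zfp317 (−5.983), Tfb1m (−5.76), an rRNA methyltransferase of mitochondria, Tex2 (−5.647), Gon4l (−5.553), Pvr (−5.24), Pias4 (−5.09), a SUMO ligase, and Rela (−5.017), a subunit of NF-κB. Of these 10 only Gon4l overlapped between genotypes, and limma gave each an FDR between 0.0707 and 0.454. With the replicate block, which pairs the libraries of this stage, the limma FDR was 0.0997 for Dgkd and 0.0464 for Sema4d.

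In ESCs the exon of Zfyve26, which encodes spastizin, had a PSI of 98.45, 100.0 and 100.0 in WT and 96.49, 87.76 and 88.89 in slow/slow cells (−8.437 points), from only 34 to 128 reads. The other exons that lost more than 5 points in ESCs were in Gpcpd1 (−7.773), 5930434B04Rik (−7.073), Sfi1 (−6.647) and Zfp523 (−5.3). In neurons the exon of Man2a1, a Golgi mannosidase of N-glycan processing, had a PSI of 98.5, 100.0 and 96.89 in WT and 84.13, 89.8 and 95.24 in slow/slow cells (−8.74 points), and slow/slow values rested on as few as 41 reads. Slmap, a membrane protein bound to the STRIPAK complex, went from 99.22, 100.0 and 98.48 to 96.37, 90.04 and 90.88 (−6.803 points, limma FDR 0.0495). Syvn1, a ubiquitin ligase of the endoplasmic reticulum, lost −6.027 points in exon 2 and −6.5 points in exon 3 of 16, which are neighbours across an intron of 209 bases and so share junction reads. None of the ESC exons and, in neurons, only the Slmap exon passed limma at an FDR of 0.05.

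The exons that fell shared few features. Their median length was 110 bases (42 to 297), against 118 for all near-constitutive exons, 9 of 23 had a length that is a multiple of 3, and 20 of the 22 matched to a transcript were wholly coding. The median of their longer flanking intron was 1450 bases (209 to 18249), below the 2775 bases of the whole set, and 0 of 23 lay beside an intron of 20 kb or longer. These are counts of a short list chosen on the readout and carry no test. Host expression moved in either direction: of the host genes, 1 was higher and 1 lower of 5 in ESCs, 1 and 1 of 4 in NPCs, 2 and 4 of 11 in PSA-NCAM+ cells, and 0 and 3 of 3 in neurons at an FDR of 0.05 with edgeR. With the replicate block Rela (log2 fold change −0.29, FDR 0.0337) and Tfb1m (−0.28, FDR 0.0167) were also lower in PSA-NCAM+ cells. Over all genes tested, 18.5% were higher and 21.9% lower in slow/slow ESCs, 29.3% and 27.4% in NPCs, 28.6% and 28.1% at the PSA-NCAM+ stage, and 23.4% and 28.4% in neurons. The 3 in neurons were Man2a1 (log2 fold change −0.59), Slmap (−0.40) and Syvn1 (−0.35).

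Retention of the introns beside the fallen exons, a readout that the choice did not use, showed 0 calls by the same posterior rule among 6, 6, 15 and 7 introns tested in ESCs, NPCs, PSA-NCAM+ cells and neurons. With limma, 0, 1, 1 and 1 of these introns had an unadjusted p under 0.05, and 1, in PSA-NCAM+ cells, had an FDR under 0.05 at a change below the threshold of size. Beside all near-constitutive exons, 2 introns were higher and 0 lower of 19722 in ESCs, 27 and 13 of 20180 in NPCs, 7 and 1 of 19837 in PSA-NCAM+ cells, and 16 and 9 of 20215 in neurons. Over all introns tested, 0.0541%, 0.321%, 0.0838% and 0.260% were called in either direction.

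The mirrored set gives the number that the same choice yields when the genotypes are exchanged. Exons at a PSI of at least 95 in all slow/slow libraries were skipped in WT cells by the same rule in 0 cases in ESCs, 2 in NPCs, 1 at the PSA-NCAM+ stage and 10 in neurons, 12 exons in all. Over all exons tested, rises of that size in slow/slow cells made up 0.372%, 0.802%, 0.233% and 1.96%. Set beside the exons newly skipped in slow/slow cells, these were 10 against 0 in neurons and 2 against 1 in NPCs, and no test was made of the difference between the counts.

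Dync1li2, which encodes a light intermediate chain of cytoplasmic dynein, held the largest of these differences. Its exon of 42 bases had a PSI of 72.82, 76.18 and 76.78 in WT neurons and 96.28, 96.34 and 96.64 in slow/slow neurons (21.16 points), and lay between 95.77 and 100.0 in all libraries of the other 3 stages. The next in neurons were the exons of Dnalc4 (17.73 points), a dynein light chain, Arhgap17 (16.38), Stx3 (15.39), a syntaxin of exocytosis, and Cblb (12.86), a ubiquitin ligase. Jak3, a kinase of cytokine receptors, was skipped in WT at both intermediate stages, with 87.8, 89.38 and 87.98 against 98.77, 100.0 and 100.0 in NPCs (11.2 points) and 86.25, 84.97 and 81.94 against 95.53, 100.0 and 98.54 in PSA-NCAM+ cells (13.64 points). Ndufs4 encodes a subunit of respiratory complex I, and its exon 2 of 5, between introns of 36432 and 34418 bases, had 87.78, 84.38 and 87.84 in WT and 97.34, 98.13 and 97.98 in slow/slow NPCs (11.15 points). In each of these exons the genotypes did not overlap. The limma FDR of Jak3 in PSA-NCAM+ cells was 0.024, or 0.0587 with the replicate block, and those of Arhgap17 and Stx3 in neurons were 0.229 and 0.0647.

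Slow/slow PSI values took no part in the choice, although coverage in the slow/slow libraries did, so stages can be compared within slow/slow cells. At a difference of more than 10 points, 0 exons changed from ESCs to NPCs, 0 from NPCs to PSA-NCAM+ cells and 0 from NPCs to neurons, whereas 0.738%, 0.782% and 3.42% of all exons tested did. Limma gave 610, 1626 and 1207 exons at an unadjusted p under 0.05 and 8, 101 and 173 at an FDR of 0.05 in either direction and of any size, beside 0.510%, 1.12% and 5.80% of all exons. With the replicate block it gave 8, 53 and 159, beside 0.389%, 0.720% and 5.80%. At more than 5 points with the same posterior probability, 1 exon fell and 0 rose from ESCs to NPCs, 18 fell and 1 rose from NPCs to PSA-NCAM+ cells, and 7 fell and 4 rose from NPCs to neurons, beside 1.34%, 2.11% and 4.98% of all exons. The largest differences between the means, in either direction and at any posterior probability, were in Zfyve26 (8.177 points), Gpcpd1 (−5.667) and Cept1 (−5.333) from ESCs to NPCs. From NPCs to PSA-NCAM+ cells they were in Gpcpd1 (9.06), Arhgef26 (−8.387) and Pcsk7 (−8.223), a proprotein convertase, and from NPCs to neurons in Man2a1 (−9.62), Gpcpd1 (9.317) and Syvn1 (−7.583).

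Mean inclusion of the Gpcpd1 exon in slow/slow cells was 91.07 in ESCs, 85.4 in NPCs, 94.46 at the PSA-NCAM+ stage and 94.72 in neurons. The slow/slow libraries of NPCs overlapped with those of ESCs (posterior probability 0.793, limma FDR 0.944) and not with those of either later stage, where the limma FDR was 0.34 and 0.238. Arhgef26 stood at 100.0 in each slow/slow NPC library and at 84.13, 92.31 and 98.4 in PSA-NCAM+ cells, while Pcsk7, at 91.97, 100.0 and 100.0 and then 89.79, 84.01 and 93.5, overlapped. Leaving out slow/slow replicate 1 of ESCs gave 1 exon past 10 points from ESCs to NPCs. Without 1 slow/slow library the count rose from 0 to as many as 3 from NPCs to PSA-NCAM+ cells (PSA-NCAM+ replicate 3) and 2 from NPCs to neurons (NPC replicate 1). For the near-constitutive exons named up to here, the difference between the genotype effect in ESCs and that at each later stage did not reach an FDR of 0.05 in limma, the lowest being 0.0969 for Zfp523 in NPCs, and mirrored exons were not tested in this way.

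Most near-constitutive exons have a trace of skipping, and its level can be followed in each library. To treat the genotypes alike, mean skipping (100 minus PSI) was taken over the 13150 exons that met the bound in both. In ESCs it was 0.442, 0.410 and 0.435% in WT and 0.347, 0.356 and 0.329% in slow/slow libraries. In NPCs the order was the other way round, with 0.274, 0.283 and 0.268% in WT and 0.328, 0.334 and 0.321% in slow/slow libraries. In neurons slow/slow cells were again lower, with 0.514, 0.461 and 0.505% against 0.348, 0.345 and 0.332%. The genotypes did not overlap at these 3 stages. An exact permutation test gave p of 0.1 at each of them, the lowest it can give with 3 against 3 libraries. The order in NPCs depends on the exons summed: over all near-constitutive exons the means were 0.31% in WT and 0.415% in slow/slow cells, and over the mirrored set they were 0.37% and 0.382%, and those libraries overlapped. In ESCs and neurons slow/slow cells were lower over each of these sets. The WT libraries ran from a low in NPCs (0.275 ± 0.0075%, SD, n = 3) to 0.429 ± 0.017% in ESCs and 0.493 ± 0.028% in neurons, whereas the slow/slow means at these stages stayed between 0.328 and 0.344%.

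PSA-NCAM+ cells stood apart in level and spread. Mean skipping there was 0.815, 0.531 and 0.368% in WT and 0.706, 0.628 and 0.483% in slow/slow libraries, so the genotypes overlapped and replicate 1 was highest in both. Mean intron retention was also highest in replicate 1, at 2.27% in WT and 2.08% in slow/slow cells, against 1.12 to 1.35% in the other PSA-NCAM+ libraries. At this stage alone, libraries of the same replicate number deviated together (r over genes 0.402 to 0.54), and so did replicates 2 and 3 of different genotypes (0.241 and 0.399). The part of RNA quality or incomplete splicing in these levels was not tested.

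**Figure D2:**
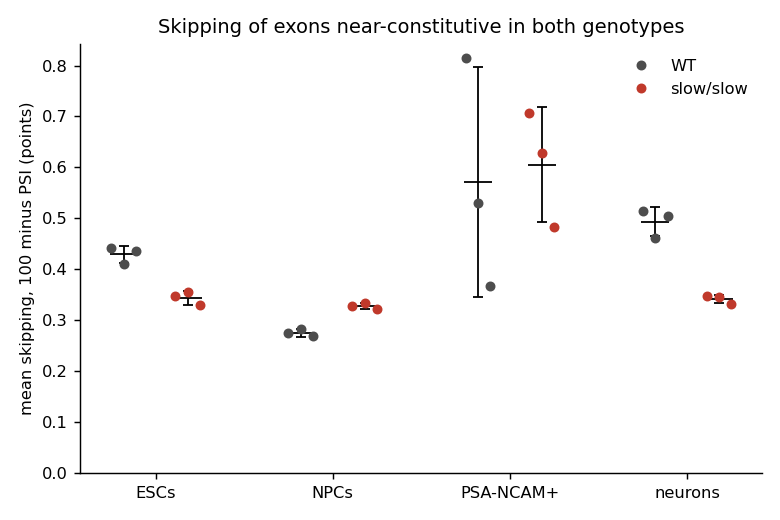
Mean skipping in percent (100 minus PSI) over the 13150 exons with PSI of at least 95 in all 24 libraries, by stage and genotype; points are libraries and bars the mean ± SD (n = 3). Slow/slow libraries lie below WT in ESCs and neurons and above WT in NPCs, and in PSA-NCAM+ cells the genotypes overlap.

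Exons beside the longest introns were skipped less in slow/slow than in WT cells at each stage. The 1097 exons of both sets whose longer flanking intron spans 20 kb or more lie in 663 genes, and this grouping was made after the values had been seen. Their mean skipping in ESCs was 0.72, 0.627 and 0.664% in WT and 0.312, 0.381 and 0.284% in slow/slow libraries. In NPCs it was 0.411, 0.476 and 0.421% against 0.309, 0.32 and 0.26%. In these 2 stages every slow/slow library was below every WT library, although in NPCs the exons as a whole went up.

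The same order held at the later stages. In PSA-NCAM+ cells the exons beside introns of 20 kb or more were skipped at 0.657, 0.547 and 0.439% in WT and 0.424, 0.419 and 0.348% in slow/slow libraries, and in neurons at 0.774, 0.705 and 0.745% against 0.312, 0.313 and 0.346%. The genotypes did not overlap at either stage. The differences of the means were −0.34, −0.14, −0.15 and −0.42 percentage points in ESCs, NPCs, PSA-NCAM+ cells and neurons.

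Beside introns that are both under 1 kb (2547 exons), mean skipping went from 0.337% in WT to 0.284% in slow/slow ESCs, from 0.243% to 0.330% in NPCs, from 0.636% to 0.683% in PSA-NCAM+ cells, where the libraries overlapped, and from 0.407% to 0.268% in neurons. Between these extremes, exons with a longer intron of 1 to 5 kb (6522) went from 0.246% to 0.320% and those of 5 to 20 kb (2984) from 0.306% to 0.355% in NPCs. In WT ESCs, NPCs and neurons the exons beside the longest introns were skipped more than those beside short introns, and in slow/slow cells of these stages both levels lay closer together. The ratio of mean skipping beside introns of 20 kb or more to that beside introns under 1 kb was 2.12, 1.89 and 1.96 in WT ESCs and 1.12, 1.28 and 1.04 in slow/slow ESCs. In NPCs it was 1.57, 1.98 and 1.85 against 0.888, 0.98 and 0.825, and in neurons 1.79, 1.83 and 1.84 against 1.08, 1.14 and 1.43. The genotypes did not overlap at these 3 stages, and in PSA-NCAM+ cells, at 0.683, 0.931 and 1.22 against 0.515, 0.582 and 0.687, they did, while in each of the 3 pairs of the same replicate number the slow/slow ratio was the lower one. For this ratio the exact permutation test gave p of 0.1 in ESCs, NPCs and neurons and 0.2 in PSA-NCAM+ cells.

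**Figure D3:**
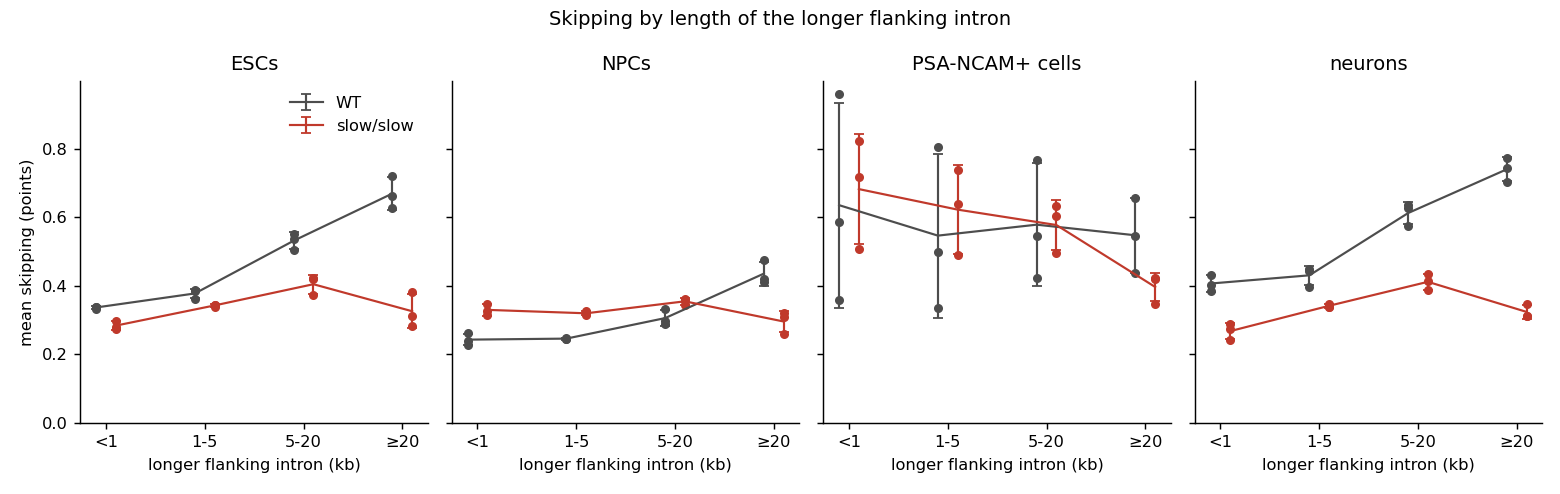
Mean skipping in percent (vertical axis) of exons grouped by their longer flanking intron (horizontal axis, under 1 kb, 1 to 5 kb, 5 to 20 kb, 20 kb and over), in 1 panel per stage; points are libraries and lines join the means ± SD (n = 3). Skipping beside introns of 20 kb and over is lower in every slow/slow library than in every WT library of the same stage.

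The lower skipping beside long introns was seen whether the upstream intron (766 exons) or the downstream intron (560 exons) was the one of 20 kb or more, and in the 229 exons between introns that both reach that length. It was also seen in the 425 exons with at least 100 reads in all libraries. In PSA-NCAM+ cells the genotypes overlapped among the 590 of class S, among the 1190 near-constitutive exons beside such introns, where slow/slow libraries reached 0.569% and WT libraries went down to 0.507%, and among the 1460 with a PSI of at least 90 in all libraries. The host genes of the 1097 exons had a median log2 fold change of 0.026, 0.073, 0.15 and −0.10 at the 4 stages. Exon length did not order the genotypes in this way. The slow/slow to WT ratio of mean skipping in NPCs was 1.06 for exons of up to 80 bases, 1.19 for those of up to 120, 1.30 for those of up to 160, 1.31 for those of up to 300 and 0.997 for longer exons, and in neurons it lay between 0.666 and 0.742 in all 5 classes.

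Single exons were then tested on their exclusion reads, with the reads over the exon as exposure, in a model added after the values had been seen (edgeR quasi-likelihood test, FDR under 0.05 over the 10940 exons fitted, of which 5874 were near-constitutive). Log2 fold changes below are of this skipping rate, slow/slow over WT. In ESCs, 0 near-constitutive exons had a higher rate (168 at an unadjusted p under 0.05, and 1 with the replicate block) and 6 a lower one. In NPCs 120 were higher and 20 lower, in PSA-NCAM+ cells 9 higher and 4 lower (10 and 9 with the replicate block), and in neurons 3 higher and 26 lower. The choice on WT values favours higher rates, and an exon could be fitted through slow/slow exclusion reads alone, so these counts are descriptions. Of the 5145 fitted exons that belong to both sets, 0 were higher and 6 lower in ESCs, and 81 and 19 in NPCs. In PSA-NCAM+ cells 5 and 4 of them were called, and in neurons 2 and 23. Over all exons fitted, 0.366% were higher and 0.603% lower in ESCs, 6.71% and 1.72% in NPCs, 1.22% and 0.466% at the PSA-NCAM+ stage, and 1.11% and 2.94% in neurons.

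The counts changed with the scale. When rates were taken relative to the skipping level of the library, the counts of higher and lower exons were 7 and 3 in ESCs, 97 and 40 in NPCs, 6 and 9 at the PSA-NCAM+ stage, and 23 and 13 in neurons, so that the majority turned round in ESCs, PSA-NCAM+ cells and neurons and remained on the higher side in NPCs. The number of higher exons in NPCs dropped to 76 without WT NPC replicate 3. In PSA-NCAM+ cells it rose to 19 without WT replicate 1 and dropped to 2 without slow/slow replicate 2. The number of lower exons in neurons dropped to 7 without slow/slow replicate 2 and to at most 17 without any of the other libraries of that stage, and that in ESCs to between 1 and 3 without any 1 library. In NPCs 11 to 15 exons were lower without 1 library.

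**Figure D4:**
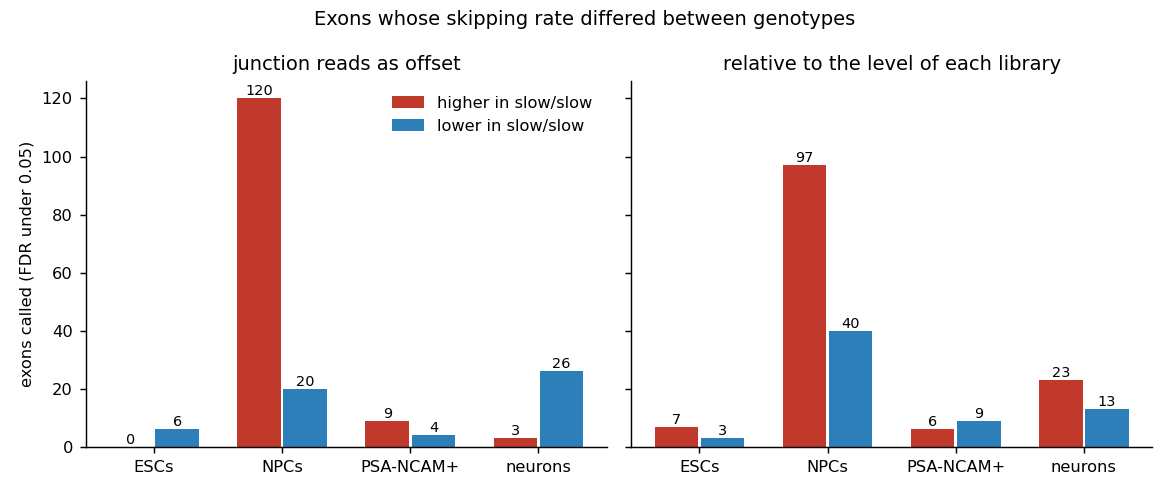
Number of near-constitutive exons with a higher or lower skipping rate in slow/slow than in WT cells (FDR under 0.05, edgeR) at each stage, as measured and relative to the skipping level of each library. NPCs show 120 higher and 20 lower exons as measured and 97 and 40 relative to the library level.

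The 120 exons with a higher rate in NPCs lay in 119 genes. Their median length was 123 bases, 56 had a length that is a multiple of 3, and the median of their longer intron was 2383 bases, close to the 2404 bases of all near-constitutive exons fitted. Their host genes showed no common direction, with 35 higher and 42 lower in slow/slow NPCs. The size was small, with a median difference of 1.9 points of PSI. Among the 328 fitted exons beside introns of 20 kb or more, 0 had a higher rate at any stage, and 4, 3, 2 and 3 had a lower one in ESCs, NPCs, PSA-NCAM+ cells and neurons. These shares of 1.22%, 0.915%, 0.61% and 0.915% lie beside 0.603%, 1.72%, 0.466% and 2.94% of all exons fitted, so in NPCs and neurons they are below the background. At an unadjusted p under 0.05, edgeR gave 1, 9, 6 and 2 higher and 39, 26, 27 and 51 lower exons among them, and 0 were higher at an FDR of 0.05 with the replicate block or relative to the library level. The 6 exons with a lower rate in ESCs had a median longer intron of 27050 bases, and the 26 in neurons one of 2166 bases.

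Across the 4 stages 169 of the 5874 near-constitutive exons fitted were called at least once, 14 of them at more than 1 stage. The same counts over all exons fitted were not made, and their shares per stage are given above. Near-constitutive exons with a lower rate at several stages were in Ndufs4, Mrps28 and Pfdn1, with roles in complex I, in the mitochondrial ribosome and in the prefoldin chaperone. The Ndufs4 exon is exon 4 of 5, beside introns of 8966 and 18950 bases, and is another exon than that of the mirrored set. It was skipped at 2.89, 3.48 and 3.42% in WT and 1.09, 1.14 and 1.32% in slow/slow ESCs. The rates were 2.68, 3.56 and 2.72% against 1.05, 0.78 and 1.24% in NPCs, 4.57, 2.59 and 1.89% against 1.51, 0.94 and 0.62% in PSA-NCAM+ cells, and 1.94, 2.09 and 2.51% against 0.84, 0.73 and 0.46% in neurons. No slow/slow library reached a WT library of its stage, the log2 fold changes were −1.48, −1.55, −1.63 and −1.65, and the FDR was 0.00359 or lower at each stage.

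Mrps28 gave a like picture at 3 stages. Its exon 2 of 3, beside introns of 23419 and 97571 bases, was skipped at 3.78, 3.1 and 2.34% in WT and 0.66, 0.37 and 0.72% in slow/slow ESCs, and at 3.26, 3.91 and 2.19% against 0.77, 0.69 and 0.48% in NPCs. In PSA-NCAM+ cells it was skipped at 3.72, 0.97 and 3.64% against 1.42, 0.91 and 0.0%, where the libraries overlapped. The log2 fold changes were −2.33 (FDR 0.0222), −2.18 (FDR 0.00709) and −2.08 (FDR 0.0438). In neurons, where it was not called, the values were 3.96, 3.64 and 3.99% against 2.15, 1.65 and 0.65%. The exon of Pfdn1, beside introns of 18689 and 27845 bases, had log2 fold changes of −2.07 in ESCs, −2.37 in NPCs and −1.72 in neurons, with FDR of 0.00673, 0.000963 and 0.0285. Relative to the library level, its lower rate in neurons was lost (edgeR FDR 0.183), and those in ESCs (0.0232) and NPCs (7.41e-05) were kept.

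Exons with a higher rate at several stages were in Ndufa7, another complex I subunit, at 3 stages, and in Dgkd, Kif3a, Napa, Psmb2 and Tmem50a in NPCs and PSA-NCAM+ cells. In NPCs the Dgkd exon was skipped at 1.16, 1.47 and 0.83% in WT and 4.05, 2.36 and 12.55% in slow/slow libraries. The library at 12.55% thus weighed most in the slow/slow mean. Kif3a encodes a kinesin motor subunit, Napa an attachment protein of membrane fusion, and Psmb2 a proteasome subunit. The Ndufa7 exon of 50 bases was skipped at 2.34, 2.52 and 2.38% in WT and 4.53, 5.23 and 5.89% in slow/slow NPCs, and at 2.91, 3.01 and 3.09% against 4.06, 4.91 and 5.99% in neurons. Neither pair overlapped (log2 fold changes 1.10 and 0.71, FDR 4.69e-10 and 4.46e-05). In PSA-NCAM+ cells the log2 fold change was 0.64 (FDR 0.000282, or 0.447 relative to the library level). The Tmem50a exon was skipped at 0.25, 0.34 and 0.18% in WT and 1.74, 2.43 and 2.57% in slow/slow NPCs, and at 0.6, 0.79 and 0.65% against 1.83, 4.53 and 2.13% in PSA-NCAM+ cells.

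The genotype effect itself differed between NPCs and neurons in some exons. Tested as the effect in neurons minus that in NPCs, it was lower in 159 and higher in 12 of the 5874 near-constitutive exons fitted. These are smaller shares than the 7.38% and 1.41% of all 10940 exons fitted. Relative to the library level the counts were 80 lower and 43 higher, and with the replicate block 123 and 10. Without slow/slow neuron replicate 2 the count of higher exons was 4, and it was 6 or 7 without WT NPC replicate 3, WT neuron replicate 1 or slow/slow neuron replicate 1. These 2 comparisons have no sample in common, and this test too was added after the values had been seen.

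In 5 genes the exon was called higher in NPCs and lower in neurons: 1810035L17Rik, Atp5d, Ogdh, Sepw1 and Trmt2a. Relative to the library level, the lower rate in neurons was lost for 1810035L17Rik (edgeR FDR 0.233), Atp5d (0.183) and Ogdh (0.161). It was kept for Sepw1 (5.42e-13) and Trmt2a (0.0414). With the replicate block, the edgeR FDR was 0.053 for Ogdh in neurons and 0.0573 for Trmt2a in NPCs, where the Trmt2a libraries overlapped. Sepw1 encodes the small selenoprotein W, and its exon 3 of 6 (54 bases, beside introns of 90 and 187 bases) was skipped at 0.25, 0.26 and 0.31% in WT and 1.49, 1.09 and 0.65% in slow/slow NPCs. In neurons the same exon was skipped at 3.2, 3.41 and 3.76% in WT and 0.48, 0.41 and 0.58% in slow/slow cells, from 4380 to 11110 reads. WT cells thus went up strongly from NPCs to neurons in this exon and slow/slow cells did not, and the difference of the effects was −4.83 ± 0.50 on the log2 scale (SE, FDR 4.52e-08).

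Atp5d encodes the delta subunit of ATP synthase. Its exon 4 of 5 was skipped at 0.77, 0.46 and 0.49% in WT and 2.48, 1.51 and 2.62% in slow/slow NPCs, and at 3.6, 3.12 and 3.56% against 1.09, 2.05 and 1.46% in neurons, without overlap at either stage (difference of the effects −3.10 ± 0.43, FDR 7.25e-06). The Ogdh exon, in the gene of a citric acid cycle dehydrogenase subunit, was skipped at 0.0, 0.2 and 0.4% in WT and 0.44, 3.02 and 1.78% in slow/slow NPCs, and at 2.85, 1.84 and 0.92% against 0.28, 0.23 and 0.56% in neurons (difference −5.32 ± 1.10, FDR 0.000377). Fads1, a fatty acid desaturase, was called only in neurons, at 4.76, 4.8 and 3.7% in WT and 0.59, 0.86 and 0.84% in slow/slow cells (log2 fold change −2.51 ± 0.55, FDR 0.00147).

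Ppp1cb held 1 of the 12 exons whose effect was higher in neurons than in NPCs. Ppp1cb encodes a catalytic subunit of protein phosphatase 1, and its exon 7 of 8 (135 bases) was skipped at 4.52, 3.22 and 3.17% in WT and 0.49, 0.0 and 0.27% in slow/slow NPCs. In neurons it was skipped at 0.53, 0.46 and 0.39% in WT and 1.44, 2.26 and 1.29% in slow/slow cells. The genotypes did not overlap at either stage, the lower rate in NPCs was called (FDR 0.000699), and the difference of the effects was 5.50 ± 0.89 (FDR 0.000252). Ppp1cb expression did not move in that way, at 243 to 293 CPM in WT and 278 to 318 CPM in slow/slow NPCs (FDR 0.247, edgeR).

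**Figure D5:**
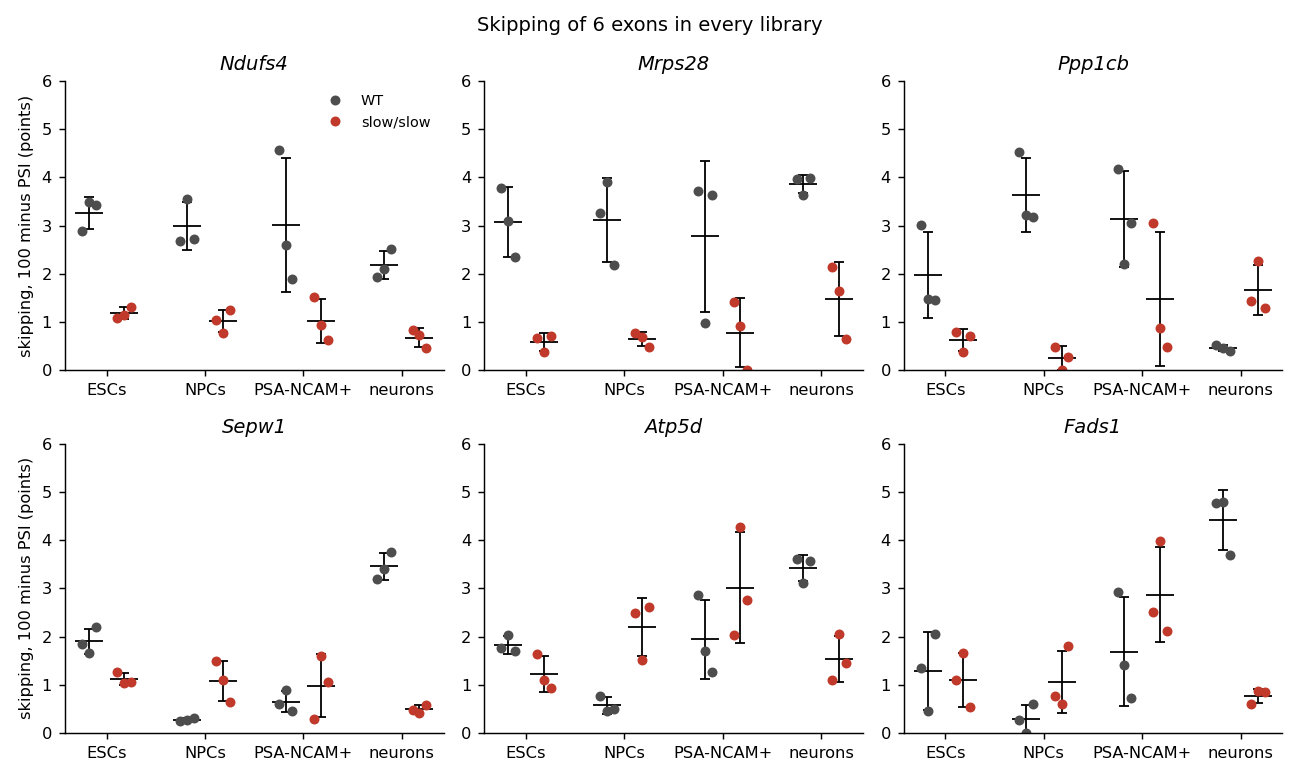
Skipping in percent (100 minus PSI) of the exons in Ndufs4, Mrps28, Ppp1cb, Sepw1, Atp5d and Fads1 in each library, by stage and genotype. Ndufs4 lies lower in slow/slow cells at all 4 stages, Sepw1 and Atp5d change order between NPCs and neurons, and Ppp1cb does so in the opposite direction.

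Within slow/slow cells, whose PSI values the choice did not use, the skipping rate rose in 66 near-constitutive exons and fell in 1 from NPCs to PSA-NCAM+ cells, beside 2.30% and 0.0823% of all exons fitted. These counts are out of the 5874 near-constitutive exons fitted. The WT bound at every stage favours stable exons, so smaller shares are in part built in here too. Relative to the library level the counts were 64 and 40, and leaving out a slow/slow library moved the 66 to between 16 (NPC replicate 1 or 2) and 100 (PSA-NCAM+ replicate 3). From ESCs to NPCs 1 exon rose and 3 fell, beside 0.585% and 0.293%, and without 1 slow/slow library the counts lay between 0 and 2 for either direction. From NPCs to neurons 24 rose and 42 fell, beside 3.27% and 3.62%, and the rises numbered 12 without slow/slow NPC replicate 1 and the falls 17 without neuron replicate 2, 25 without neuron replicate 1 and 26 without NPC replicate 2.

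Factors that recognise exons were looked at through their expression, with 68 of a list of 70 tested. In slow/slow cells 22 were higher and 5 lower in ESCs, 48 and 2 in NPCs, 50 and 4 at the PSA-NCAM+ stage, and 16 and 9 in neurons (edgeR, FDR under 0.05), with median log2 fold changes of 0.18, 0.45, 0.44 and 0.15. The shares of all genes that moved are given above with the host genes. With upper-quartile scaling, which moved the fold changes in neurons by 0.14 on the log2 scale, the neuron counts were 33 and 5. In NPCs, 13 of 15 enhancer binders (SR proteins, Tra2a, Tra2b, Srrm1 and Srrm2), 11 of 13 silencer binders (hnRNP and PTB proteins and the like), 9 of 13 factors of the U2 side and 5 of 9 of the U1 side were higher, and 0 were lower.

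The factors with the largest changes at each stage were mostly tissue regulators. Elavl4, a neuronal RNA-binding protein, rose in slow/slow ESCs (log2 fold change 1.36), NPCs (2.63) and PSA-NCAM+ cells (3.95, from a mean of 1.07 to 16.3 CPM), and so did its relatives Elavl3 in ESCs (2.68) and Elavl2 in NPCs (1.25) and the neuronal splicing factor Rbfox1 in PSA-NCAM+ cells (2.60, from 0.115 to 0.671 CPM). Mbnl2, of the muscleblind family, fell in ESCs (−1.26), NPCs (−1.60) and PSA-NCAM+ cells (−1.20), as did Celf2 in ESCs (−1.07), Rbfox2 in NPCs (−0.41) and Mbnl3 in PSA-NCAM+ cells (−1.23). In neurons Mbnl3 (1.86) and Qk (1.04, from 0.205 to 0.455 CPM) rose, and Srsf12 (−1.26), an SR protein, and Nova1 (−1.25), a regulator of neuronal splicing, fell. Each passed an FDR of 0.05 with edgeR. The summed neuron markers were also higher in slow/slow ESCs (122 to 151 against 45.1 to 57.0 CPM) and NPCs, and their part in these changes was not tested. In ESCs Tubb3 alone gave 107 to 135 against 36.3 to 48.3 CPM. Syn1 was higher at both stages too, and Rbfox3 overlapped between genotypes. In slow/slow neurons Tubb3 was higher (1080 to 1250 against 889 to 980 CPM). There Syn1 (59.0 to 62.3 against 212 to 236 CPM) and Rbfox3 (18.9 to 21.2 against 34.4 to 40.1 CPM) were lower.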

How the data were processed

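Poly(A)+ RNA was sequenced as 75-base paired-end reads from 24 libraries, 3 per genotype and stage. Per the study's methods, the authors mapped the reads to mm9 and used vast-tools version 1, and the deposited PSI values are the percent of inclusion among inclusion and exclusion reads, corrected for mappability, per exon and library, with quality fields and corrected read numbers beside them. Intron retention is a deposited percent of the same kind. The deposited gene table holds raw read counts by the authors, and strand use in counting is not given in the sources used here. Demultiplexing was done with bcl2fastq 2.17.1.14 per the submitters' processing notes. Columns of RPKM values, of the authors' own fold changes and calls, and of group-pooled PSI were not used.

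An exon was tested at a stage when its quality field 3 (coverage) was SOK, OK or LOW and field 4 (balance) OK or B1 in all 6 libraries. Beta posteriors of the reads of each library, with a uniform prior, were pooled by their moments, and a call needed a difference of mean PSI over 10 points and a posterior probability over 0.95. The study's methods name the diff module of vast-tools, which was not run here, and write the probability bound as over 0.05, so 0.95 is a reading of that bound. Introns needed 15 reads and a balance p of at least 0.05. Logits of the reads plus 0.5 were also fitted with limma 3.58.1 in 1 model of the 8 groups. Exclusion reads, rounded to whole numbers, were fitted with edgeR 4.0.16 (quasi-likelihood test, at least 24 exclusion reads over all libraries, the log of all junction reads as offset). Relative to the library level, the offset also held the log of a skipping level of each library. That level was the summed exclusion reads over the summed junction reads of the fitted exons that belong to both sets. Gene counts were fitted with edgeR (TMM, filterByExpr, all 24 libraries, R 4.3.3), after 1114 entries without any count were dropped, and DESeq2 1.42.0 was an alternative. Near-identical gene copies were not separated. FDR values are Benjamini-Hochberg over all exons, introns or genes of a fit, and intervals cover counting error only. Each test was tried on simulated data before use.

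The exons and lists were chosen with earlier results of these data known. Exons named under a fixed rule were, per stage, the 6 newly skipped ones with the largest fall and no overlap, those newly skipped at 3 or 4 stages (there were 0), the 3 with the largest difference in each comparison between stages within slow/slow cells, and the 2 factors with the largest called change in each direction. All other exons were named after their values were seen. Libraries of the same replicate number and stage deviated together in gene expression in PSA-NCAM+ cells alone (r 0.402 to 0.54 in gene expression and 0.0591 to 0.234 in exon inclusion, against −0.0841 to 0.0677 and −0.0333 to 0.0067 elsewhere), so numbers were taken to pair the samples at that stage. Replicates 2 and 3 of different genotypes also correlated there (0.241 and 0.399), and pairs of replicate 1 with another number had r of −0.506 to −0.372, so that mainly replicate 1 stood apart. The sources say only that replicates were separate differentiation experiments. No replicate pair agreed within counting noise (chi-square per gene 3.895 to 433.1).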

Additional observations from a re-analysis of the deposited data

Results flagged for a closer look

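In 8 genes the effect of slow/slow on the skipping rate of a near-constitutive exon differed between stages by a test of the difference itself (edgeR quasi-likelihood, log2 scale, over all exons fitted), and all these exons were picked after their values had been seen. The effect in neurons minus that in NPCs was −4.83 (FDR 4.52e-08) for Sepw1, −3.1 (FDR 7.25e-06) for Atp5d, −2.87 (FDR 1.32e-06) for 1810035L17Rik, −5.32 (FDR 0.000377) for Ogdh, −4.38 (FDR 0.000344) for Fads1 and 5.5 (FDR 0.000252) for Ppp1cb. Each of these kept an FDR under 0.05 relative to the library level.

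The exon of 1810035L17Rik was skipped at 1.4, 0.67 and 1.01% in WT and 2.79, 3.64 and 3.26% in slow/slow NPCs, and at 3.1, 3.5 and 4.11% against 1.24, 1.36 and 2.09% in neurons. For Trmt2a, a tRNA methyltransferase, the fitted difference was −9.33 (FDR 0.000839). It rests on WT NPCs at 0.0% in all 3 libraries, against 1.27, 1.51 and 0.0% in slow/slow NPCs, so its size cannot be read. In neurons the Trmt2a exon was skipped at 3.44, 2.44 and 2.57% in WT and 0.0, 0.34 and 0.0% in slow/slow cells.

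The effect in NPCs minus that in ESCs was 2.75 (FDR 0.00258) for Sepw1, 2.5 (FDR 0.00122) for Atp5d, 1.84 (FDR 0.0065) for 1810035L17Rik and 0.894 (FDR 0.000421) for Ndufa7. Relative to the library level the FDR of the last pair was 0.232 for 1810035L17Rik and 0.659 for Ndufa7. For Sepw1 the effect in neurons minus that in ESCs was −2.08 (FDR 0.0126).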

How the results depend on the processing

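Depth limits single exons: 0 exclusion reads still allow skipping of 1.478 to 2.055% at the median exon, so differences of skipping below that size rest on the best covered exons or on sums over many. The posterior probability over 0.99, the coverage field alone, at least 20 reads, class S exons and a minimum of 30 intron reads left each count within 1.5 times its value. The cause of the changes listed here was not tested. Among values of single exons and genes, 873 stayed on the same side, 48 lost the threshold, 17 gained it and 10 turned.

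Newly skipped exons in ESCs, NPCs, PSA-NCAM+ cells and neurons numbered 5, 4, 11 and 4 at a minimum of 5 points and 0 at 15 points in NPCs. With a WT bound of 90 they numbered 1, 5, 4 and 3. With a bound of 98 there were 0 in NPCs, since a WT ESC library of Gpcpd1 stood at 96.53, and summed reads gave 1 in neurons. Without single libraries they ranged from 0 to 1 in ESCs (1 without slow/slow replicate 1), 1 to 1 in NPCs, 0 to 1 in PSA-NCAM+ cells (slow/slow replicate 1 or 3) and 0 to 1 in neurons (slow/slow replicate 3).

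Mirrored exons skipped in WT numbered 11, 14, 5 and 63 at a minimum of 5 points and 5, 7, 2 and 44 with a bound of 90. At 15 points there were 0 in NPCs and PSA-NCAM+ cells and 4 in neurons, and with a bound of 98 there were 0, 0 and 1. Limma called 5 in neurons, and with the replicate block 0 in PSA-NCAM+ cells and 4 in neurons. Without single libraries the ranges were 0 to 2 in ESCs (2 without WT replicate 1, 1 without WT replicate 2), 2 to 2 in NPCs, 1 to 2 in PSA-NCAM+ cells (2 without WT replicate 2) and 10 to 13 in neurons.

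Within slow/slow cells, 1, 19 and 11 exons differed by over 5 points with a posterior probability over 0.95 from ESCs to NPCs, from NPCs to PSA-NCAM+ cells and from NPCs to neurons. Without single libraries the counts at 10 points were 0 to 1 (slow/slow ESC replicate 1), 0 to 3 (NPC replicate 1, PSA-NCAM+ replicates 1 and 3) and 0 to 2 (NPC replicate 1, neuron replicates 2 and 3). The count of flanking introns called was 0 in each of these settings.

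Beside introns of 20 kb or more, the slow/slow minus WT difference of mean skipping was negative in every setting run. In ESCs it was −0.29 over all near-constitutive exons, −0.61 over the mirrored set and −0.51 with a PSI of at least 90 in all libraries. In NPCs it was −0.31 over the mirrored set, −0.2 with at least 100 reads and −0.25 with a PSI of at least 90. In PSA-NCAM+ cells it was −0.29 over the mirrored set. In neurons it was −0.36 over all near-constitutive exons, −0.75 over the mirrored set and −0.58 with a PSI of at least 90. Without single libraries the ranges were −0.37 to −0.32, −0.15 to −0.12, −0.2 to −0.096 and −0.44 to −0.4.

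For the skipping rate, the replicate block gave 1 higher exon in ESCs, 9 lower in PSA-NCAM+ cells and 6 higher in neurons. Relative to the library level there were 7 higher and 3 lower in ESCs, 40 lower in NPCs, 9 lower in PSA-NCAM+ cells, and 23 higher and 13 lower in neurons. That scale also gave 40 lower from NPCs to PSA-NCAM+ cells in slow/slow cells, and 43 higher and 80 lower for the effect in neurons minus that in NPCs. At least 48 exclusion reads gave 1 higher in ESCs and 2 higher from ESCs to NPCs. Without single libraries, higher exons ranged from 0 to 2 in ESCs (WT replicate 1, slow/slow replicate 3), 76 to 107 in NPCs (76 without WT replicate 3), 2 to 19 in PSA-NCAM+ cells (each library but slow/slow replicate 3) and 1 to 4 in neurons (1 without WT replicate 2 or 3 or slow/slow replicate 3). Lower exons ranged from 1 to 3 in ESCs (each library), 11 to 15 in NPCs (WT replicate 3, slow/slow replicates 1 and 3), 1 to 10 in PSA-NCAM+ cells (WT replicate 1, each slow/slow library) and 7 to 17 in neurons (each library). Within slow/slow cells the ranges were 0 to 2 higher and 0 to 2 lower from ESCs to NPCs (each slow/slow ESC library and NPC replicates 1 and 3), 16 to 100 and 0 to 1 from NPCs to PSA-NCAM+ cells, and 12 to 20 and 17 to 32 from NPCs to neurons. Those of the effect in neurons minus that in NPCs were 4 to 10 higher (WT NPC replicate 3, WT neuron replicate 1, slow/slow neuron replicates 1 and 2) and 107 to 134 lower.

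Fitted on the samples of 1 stage, 1 host gene of the exons that fell was called in PSA-NCAM+ cells, and 45, 14 and 60 factors in ESCs, PSA-NCAM+ cells and neurons, where upper-quartile scaling gave 38 factors. Of the 60 in neurons 49 were higher and 11 lower. Without single libraries, host genes called ranged from 1 to 2 in ESCs (WT replicate 2 or 3, slow/slow replicate 1), 2 to 2 in NPCs, 5 to 7 in PSA-NCAM+ cells and 3 to 3 in neurons, and factors from 23 to 27, 46 to 47, 42 to 57 and 19 to 23. The replicate block was set within a stage for comparisons of genotypes and within a genotype for comparisons of stages. It moved no count listed here by over 1.5 times but those given above with it, besides the limma counts of any size in PSA-NCAM+ cells (71 to 18) and from NPCs to PSA-NCAM+ cells (101 to 53). In it the Syvn1 exon 3 effect in NPCs minus that in ESCs turned from −0.0818 to 0.314 on the logit scale. Log2 fold changes of host genes that turned were those of Gon4l (−0.0196 with upper-quartile scaling), 5930434B04Rik (−7.97e-05 to 0.14), Pias4 (−0.0455 to 0.0776), Rela (−0.709 to 0.0391) and Txndc11 (−0.166 to 0.0234), the last 4 as ranges without single libraries, in ESCs for 5930434B04Rik and in PSA-NCAM+ cells otherwise.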

Other observations

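The 12 mirrored exons that WT cells skipped had a median length of 83 bases and a median longer intron of 2010 bases, and 2 of them lay beside an intron of 20 kb or more.

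Of the covered exons that belong to neither set, 787 lie beside an intron of 20 kb or more. Their mean skipping was 57.7, 57.7 and 58.1% in WT and 57.0, 57.1 and 57.1% in slow/slow ESCs (−0.74 points), and those genotypes did not overlap. In NPCs (−0.38), PSA-NCAM+ cells (0.11) and neurons (−0.54 points) they overlapped.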
